A study of Mus musculus with 9 samples.

Results

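The enzymes that activate fatty acids to acyl-CoA, carry them into mitochondria, oxidise them and release them again as free acids were followed in RAW-Blue cells, a mouse macrophage line with a reporter for inflammatory signalling. Members were all protein-coding genes whose symbol begins with Acad, Acox, Acot, Acsl, Acss, Acsf, Cpt1, Cpt2, Hadh, Echs, Echdc, Eci or Decr, which gave 53 of the 50600 genes in the deposited tables. The rule itself uses symbols and no measured value, though it was set with earlier results of these data known. RNA was sequenced from 3 libraries of cells without stimulus (None) and 3 libraries of cells given lipopolysaccharide (LPS), a component of bacterial outer membranes, at 1 µg/ml for 24 hours. Both groups were the same line, grown in the same medium with serum and antibiotics, and neither received vesicles. The third group, of 3 samples labelled LPS-PjELNs, is not analysed here. The labels do not say that the replicates were separate cultures, so every p-value rests on the spread among these libraries alone, which may be technical. In RNA from a whole culture, fewer cells of a type and less RNA per cell cannot be told apart.

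A long-chain fatty acid is first joined to coenzyme A by an acyl-CoA synthetase. Carnitine palmitoyltransferases bring the chain into the mitochondrion, where acyl-CoA dehydrogenases, enoyl-CoA hydratases, hydroxyacyl-CoA dehydrogenases and thiolases shorten it in a repeating spiral. Peroxisomes run a related spiral that opens with acyl-CoA oxidases, and acyl-CoA thioesterases undo the activation step. In macrophages, inflammatory activation is commonly described together with a turn towards glycolysis and lipid storage.

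Libraries held 14650843 to 17665200 counts, and member genes took 0.186% to 0.201% of them. Levels are given as TPM, a unit scaled for transcript length and library size. Changes are log2 fold changes of LPS over None with their standard error (SE), fitted by edgeR's quasi-likelihood test on counts, and a gene was called when its p, Benjamini-Hochberg adjusted over the 11916 genes tested, was under 0.05. Of 10 macrophage markers 9 were above 1 TPM in every library. The remaining marker, Mertk, was at 0 to 0.03 TPM. Summed markers of hepatocytes, adipocytes, muscle, fibroblasts, epithelium and T and B cells reached at most 1.72 TPM in any library. Fibroblast markers summed to 0 to 0.01 TPM in None and 0.41 to 1.72 TPM after LPS. T and B cell markers summed to 0.23 to 0.32 TPM in None and 0.85 to 1.44 TPM after LPS. Of 5 markers in each list, 1 fibroblast and 3 T and B cell markers were at 0 in all libraries, among them Col1a2, Cd3e and Cd3g. The 1 T and B cell marker that was tested was called higher after LPS (log2 fold change 2.47), and its groups did not overlap. All libraries came from the same macrophage line, and the source of these low marker levels was not tested. LPS replicate 1 lay apart from the other LPS libraries on the second axis of variation, which held 3.23% of the variance against 90.9% for the axis between the groups.

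Stretches before the start sites of some of the strongest responders are shown because the genes moved in opposite directions. Hadha and Hadhb, which changed less, are added because the pair shares a single stretch. The stretches come from the RefSeq promoter table (GRCm38.p6) and are written 5′ to 3′ along the gene's own strand. Capitals mark where 1 of 8 searched motifs matched. Bases lying in an annotated exon were left out. Cpt1a (plus strand, chr19:3323051-3323284) encodes the liver-type carnitine palmitoyltransferase and fell, and its capitals mark the nuclear receptor motif AGGTCA on the opposite strand. Hadh (minus strand, chr3:131272102-131272351) encodes the short-chain hydroxyacyl-CoA dehydrogenase and fell, and its capitals mark CCAAT. Hadha and Hadhb encode the subunits of the mitochondrial trifunctional protein and lie head to head, so the 85 bases between the gene spans (chr5:30155163-30155247, shown on the plus strand) precede both. Acsl4 (minus strand, chrX:142390536-142390785) and Acss2 (plus strand, chr2:155517793-155517947) encode synthetases that rose, and the Acss2 capitals mark the ETS motif CCGGAAG on the opposite strand. Acot9 (plus strand, chrX:155262193-155262442) encodes a mitochondrial thioesterase that rose, and its capitals mark CCAAT. None of the 8 motifs matched in Acsl4 or in the gap between Hadha and Hadhb, and a CCAAT match of Acss2 lies in the bases left out. A CCAAT match of Cpt1a runs across the end of the printed stretch and is therefore not in capitals.
Cpt1a: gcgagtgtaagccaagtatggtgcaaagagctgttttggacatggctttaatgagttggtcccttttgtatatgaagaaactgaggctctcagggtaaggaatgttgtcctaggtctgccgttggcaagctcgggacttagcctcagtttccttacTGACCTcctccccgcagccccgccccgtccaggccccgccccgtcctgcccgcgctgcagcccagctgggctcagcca
Hadh: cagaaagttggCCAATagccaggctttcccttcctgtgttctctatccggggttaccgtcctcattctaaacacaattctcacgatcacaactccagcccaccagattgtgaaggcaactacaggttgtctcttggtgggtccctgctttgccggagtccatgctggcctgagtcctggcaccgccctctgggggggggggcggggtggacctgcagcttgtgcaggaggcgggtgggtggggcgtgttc
Hadha-Hadhb gap: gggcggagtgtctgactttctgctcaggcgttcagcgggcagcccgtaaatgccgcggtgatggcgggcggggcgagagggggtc
Acsl4: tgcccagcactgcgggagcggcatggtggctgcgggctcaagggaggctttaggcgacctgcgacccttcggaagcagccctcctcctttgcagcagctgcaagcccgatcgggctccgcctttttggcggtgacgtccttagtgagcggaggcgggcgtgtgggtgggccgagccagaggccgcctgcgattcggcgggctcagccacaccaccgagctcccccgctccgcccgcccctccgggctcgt
Acss2: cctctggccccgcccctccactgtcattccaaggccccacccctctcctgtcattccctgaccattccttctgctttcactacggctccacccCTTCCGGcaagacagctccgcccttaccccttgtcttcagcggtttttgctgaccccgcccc
Acot9: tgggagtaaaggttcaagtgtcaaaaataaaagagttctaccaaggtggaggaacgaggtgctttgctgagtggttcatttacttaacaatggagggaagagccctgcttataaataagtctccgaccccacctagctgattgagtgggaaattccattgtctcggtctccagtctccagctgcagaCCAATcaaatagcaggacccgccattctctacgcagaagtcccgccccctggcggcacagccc

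The 250 bases before the start were found for 46 of the 53 members and searched on both strands for 8 motifs, with the same search over 27025 promoters as background. Of these, 4 matched in 0 of 46 members. They were DR1 (AGGNCA, any base, AGGNCA), the sterol response element (TCACNCCAC), NF-kappaB (GGGAN followed by TTTCC) and the E-box TCACGTGA, which were in 0.333%, 1.04%, 0.337% and 0.803% of all promoters. AGGTCA, which is also part of DR1 where DR1's open positions allow it, matched in 10 members, against 13.8% of all promoters. Among the 10 were Cpt1a and Acadm, called lower, and Cpt1c, Echdc3 and Echs1, called higher. The rest were not called or not tested. Bases after the start occurred in a transcript of the gene for 41 of the 46 windows, but not for that of Acadm. CCAAT matched in 21 members against 34.5% of all promoters. NRF1 (GCGCA, any base, GCGC) matched in 2 members, Acad10 and Acad12, against 3.86%, and CCGGAAG in 3, Acoxl, Acss2 and Cpt2, against 7.05%. Of the 46 members with a window, whether or not a motif matched, 13 were called higher and 15 lower. CCAAT was in 5 of the higher and 9 of the lower, and AGGTCA in 3 of the higher and 2 of the lower. A match is a string of letters in this window and not evidence of a bound factor. Only the letters given were searched, so a motif without a match may still be present in another spelling. The median GC content of these windows was 58.8% in members and 52.0% over all promoters.

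Of the 53 members, 40 were tested. After LPS 15 were higher, 16 were lower and 9 were not called, so that 77.5% were called beside 69.1% of all genes tested. Called higher were 34% of all genes and called lower 35.1%. The median log2 fold change was 0.03 over tested members and -0.03 over all genes. A change of at least 2-fold was called in 4 members higher (11.1% of all genes) and 6 lower (11.8% of all genes). The CPM values of the groups did not overlap for 30 of 40 members, beside 73.6% of all genes. The share called was near the background. Most steps of the pathway held calls in both directions, and the calls over all genes were split between the directions too. On log2(TPM + 1) 0 genes were higher at the carnitine step and at the hydratase and hydroxyacyl-CoA dehydrogenase steps.

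**Figure D1:**
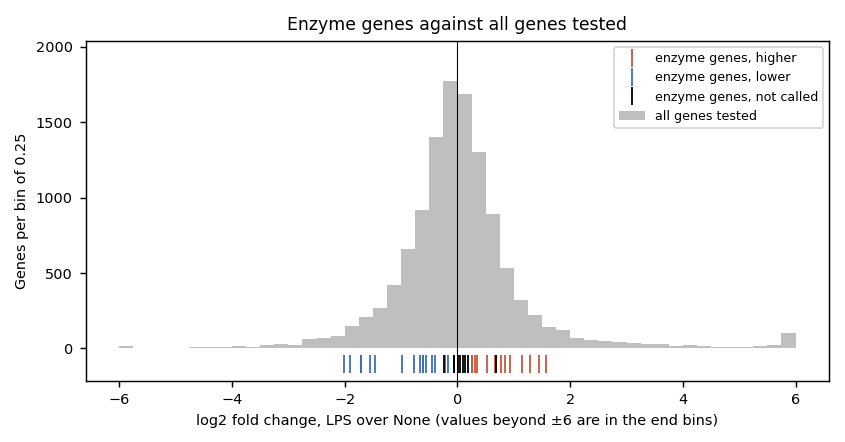
Histogram of the log2 fold change (LPS over None) of all 11916 genes tested in bins of 0.25, with ticks for tested enzyme genes below the axis, coloured by call. The ticks run from -2.02 (Cpt1a) to 1.57 (Acsl4) and lie on both sides of 0.

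The balance between directions depended on how libraries were scaled. Scaling by library totals moved the median of all genes by -0.26 (log2) and gave 10 members higher and 21 lower. On log2(TPM + 1) with limma the median moved by -0.20 and the split was 9 higher and 17 lower. Of all genes called, 49.2% were higher in the main analysis, 30.6% with library totals and 35.3% on TPM. Directions and calls of 21 members held in all 15 alternatives tried, 8 of them higher and 13 lower, and of the 10 called members that did not, those reported are identified where they are described.

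**Figure D2:**
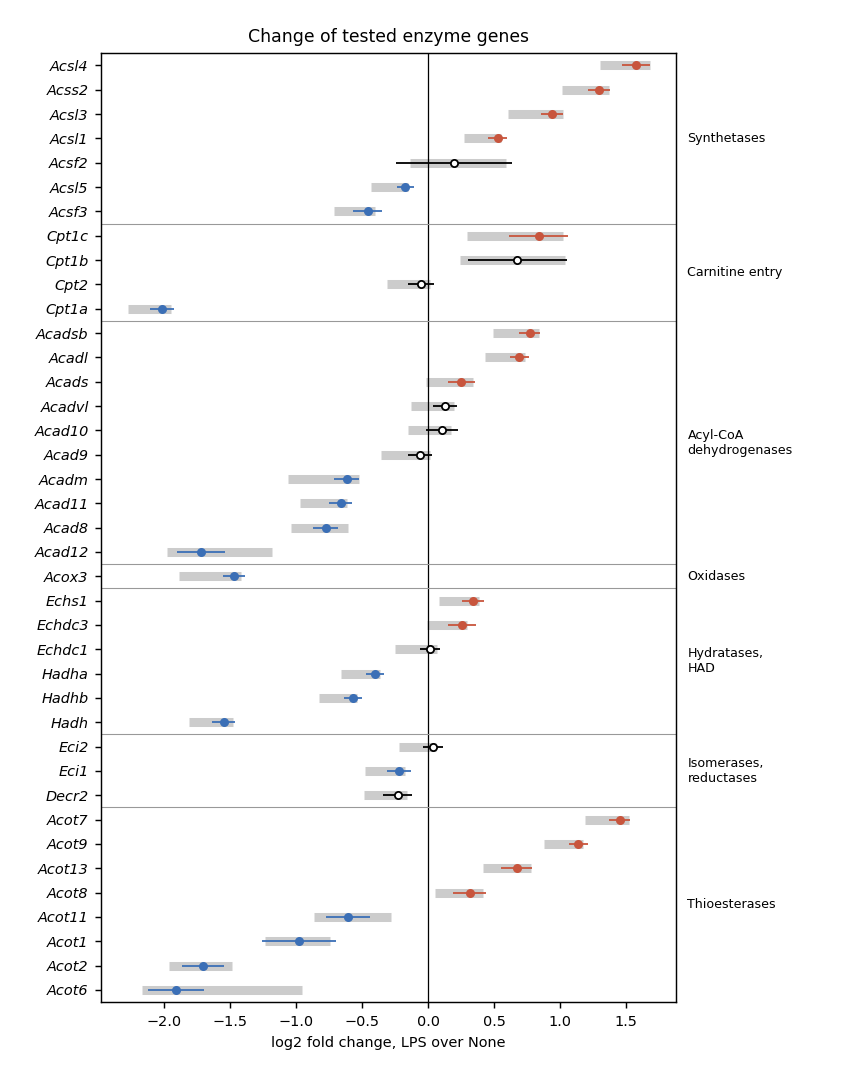
Log2 fold change of tested enzyme genes (points, coloured red when called higher, blue when called lower and open when not called) with its SE (thin line) and the range over 15 alternatives (grey bar), by role. The largest fall is Cpt1a and the largest rise Acsl4.

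Long-chain synthetases held most of the summed level of the activation step, and after LPS Acsl4 and Acsl5 stood at similar levels. Among 7 tested synthetases 4 rose, 2 fell and 1 was not called, with a median log2 fold change of 0.53, and library totals and log2(TPM + 1) gave the same 4 and 2. Acsl5, which activates long-chain fatty acids at the mitochondrial outer membrane and endoplasmic reticulum, was the most abundant in None. It measured 70.3, 70.3 and 68.8 TPM in None and 54.5, 54.3 and 50.4 TPM after LPS. The groups did not overlap, but the fitted change on counts was small, at -0.17 (SE 0.06, adjusted p = 0.0304 by edgeR). That call was lost when None replicate 1, 2 or 3 or LPS replicate 2 or 3 was left out, with an adjusted p of 0.0545, 0.0885, 0.0882, 0.0675 and 0.068, and also with RLE size factors (0.0601), DESeq2 (0.0617) and no filter on low counts (0.0507).

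Acsl4 (chrX:142317993-142390535, minus strand), which prefers arachidonic acid and related polyunsaturated chains, rose most of all members. Its level was 23.8, 21.8 and 22.1 TPM in None and 68.2, 56.6 and 48.1 TPM after LPS. Every LPS library lay above every None library, and the change was 1.57 (SE 0.11, 2.98-fold, adjusted p = 5.73e-08). Acss2 (chr2:155517948-155562746, plus strand) makes acetyl-CoA from acetate in the cytosol and nucleus. Its level was 13.6, 13.4 and 15.3 TPM in None and 29.4, 27.4 and 31.6 TPM after LPS. Again there was no overlap, with a change of 1.29 (SE 0.09, 2.45-fold, adjusted p = 5.52e-08). Acsl3, the synthetase linked to lipid droplets, rose by 0.94 (SE 0.08), and Acsl1 rose by 0.53 (SE 0.07). Acsf3, a mitochondrial malonyl-CoA synthetase, fell by 0.46 (SE 0.11), and its whole span lies within that of another coding gene, Galnt2l, whose mean count was 81% of that of Acsf3. Acsf2 stayed under 1 TPM in every library and was not called (0.19, SE 0.44).

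Summed over the 10 synthetases, the level was 155 ± 1.90 TPM in None and 202 ± 14.4 TPM after LPS (SD, n = 3), a ratio of 1.3. Within the Acsl family, the share of Acsl5 went from 53.2% ± 0.658 in None to 32.1% ± 2.0 after LPS, and that of Acsl4 from 17.2% ± 0.581 to 34.5% ± 2.91 (SD, n = 3). Shares are taken within a library and do not depend on scaling between libraries. Per library the ratio of Acsl4 to Acsl5 was 0.338, 0.310 and 0.321 in None and 1.25, 1.04 and 0.953 after LPS, so the groups did not overlap.

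**Figure D3:**
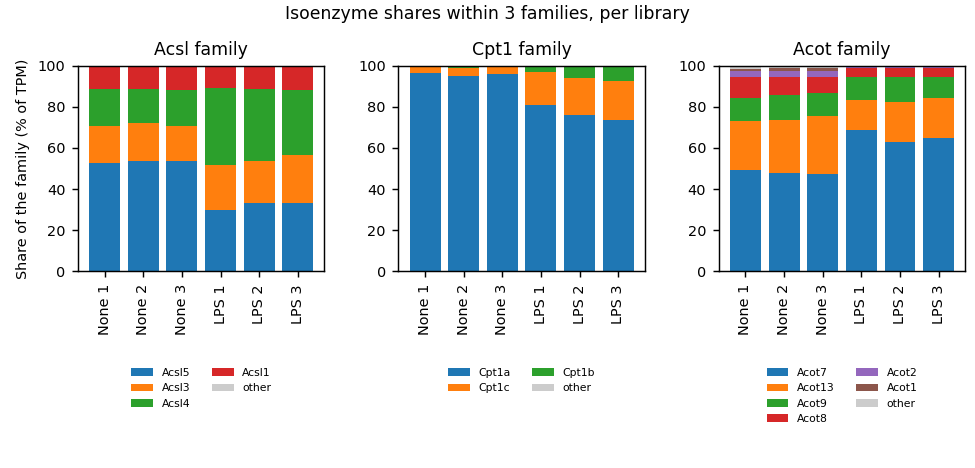
Share of each isoenzyme in the summed TPM of its family, 1 stacked bar per library, for the Acsl, Cpt1 and Acot families. Acsl5 leads its family in None at 53.2% on average and takes 32.1% after LPS, and Cpt1a goes from 95.8% to 76.7%.

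Carnitine entry showed the largest fall. Cpt1a (chr19:3323285-3385733, plus strand; promoter shown above), the malonyl-CoA-sensitive enzyme that controls entry of long chains into mitochondria, measured 42.8, 37.3 and 35.9 TPM in None and 9.03, 8.14 and 7.38 TPM after LPS. No LPS library reached any None library, and the change was -2.02 (SE 0.09, 4.05-fold lower, adjusted p = 1.38e-09). Only 2.97% of the genes tested had a smaller log2 fold change. Cpt2, the inner-membrane partner that turns acylcarnitine back into acyl-CoA, measured 13.9, 14.7 and 14.6 TPM in None and 13.4, 13.2 and 12.6 TPM after LPS. Its TPM did not overlap, its CPM did, and the change of -0.06 (SE 0.10, adjusted p = 0.626) was not called, although library totals gave -0.32 with an adjusted p of 0.013. The ratio of Cpt1a to Cpt2 in TPM was therefore 2.68 ± 0.335 in None and 0.626 ± 0.0445 after LPS (SD, n = 3).

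The other Cpt1 genes were low. Cpt1c, the brain-type form, stood at 1.28 to 1.42 TPM in None and 1.81 to 1.92 TPM after LPS and rose by 0.84 (SE 0.23, adjusted p = 0.00534), a call lost on log2(TPM + 1), with an adjusted p of 0.0591, and on log2(TPM + 0.1), with 0.0696. Cpt1b, the muscle form, stayed at 0.20 to 0.75 TPM and was not called, and 75.6% of its 100-base windows also occur in another gene model. Within the Cpt1 family, the share of Cpt1a went from 95.8% ± 0.636 to 76.7% ± 3.68 (SD, n = 3). Summed over the carnitine enzymes, the level was 54.8 ± 3.21 TPM in None and 23.7 ± 0.990 TPM after LPS (SD, n = 3), and Cpt1a made up most of the difference. Of the 4 tested carnitine enzymes 1 was called higher and 1 lower, against 1 and 2 with library totals and 0 and 1 on log2(TPM + 1).

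Acyl-CoA dehydrogenases, which open each turn of the spiral and differ in the chains they take, moved apart. Of 10 tested, 3 were called higher, 4 fell and 3 were not called (2 and 5 called higher and lower under library totals, 2 and 4 on log2(TPM + 1)). Acadm, the medium-chain enzyme, was the most abundant in None, at 78.0, 77.7 and 73.4 TPM, and stood at 36.5, 37.8 and 35.5 TPM after LPS. All LPS libraries lay below all None libraries, with a change of -0.62 (SE 0.09, adjusted p = 7.94e-05). The fall was larger in TPM than in counts. The ratio of count to TPM, an index of the transcript length that the counting tool estimated, was 1.17 times as high after LPS once the shift between groups was removed, with overlapping groups. That index, looked at only after the TPM and counts of Acadm were seen to differ, was apart by over 1.2-fold without overlap in 2 of 35 members, Acad8 (0.787) and Acot11 (0.790), beside 5.73% of 10242 genes. Acadl, the long-chain enzyme, measured 39.2, 45.1 and 41.6 TPM in None and 57.7, 58.5 and 57.8 TPM after LPS. It moved the other way without overlap, by 0.69 (SE 0.07, adjusted p = 3.31e-06), so the ratio of Acadm to Acadl went from 1.83 ± 0.143 to 0.631 ± 0.0157 (SD, n = 3).

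Acad12 is a less studied member, at 3.16, 2.46 and 2.73 TPM in None and 0.72, 0.58 and 0.68 TPM after LPS. It fell by 1.72 (SE 0.18, 3.29-fold lower, adjusted p = 3.52e-06) with no overlap, and it shares 6.99% of its 100-base windows with Acad10, its neighbour, which was not called (0.10, SE 0.12). Acad8, an enzyme of valine breakdown, fell by 0.78 (SE 0.09), and Acad11 fell by 0.66 (SE 0.09). Acadsb, which acts on short branched chains from isoleucine, rose by 0.77 (SE 0.08), with LPS libraries spread from 26.5 to 46.5 TPM, and was not called on unfiltered log2(TPM + 1), with an adjusted p of 0.0885. Acadvl, the very-long-chain enzyme, measured 43.6 to 49.6 TPM in None and 43.3 to 49.6 TPM after LPS and was not called (0.13, SE 0.09), and 14.9% of its windows are shared with the neighbouring Dvl2. Acad9, needed to assemble respiratory complex I, was not called (-0.06, SE 0.09) except with library totals (-0.32, adjusted p = 0.00861).

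Acads, the short-chain enzyme, was called higher at 0.25 (SE 0.10, adjusted p = 0.0471) while its groups overlapped. The call was lost without None replicate 1 (adjusted p = 0.0713), None replicate 3 (0.204), LPS replicate 1 (0.0694) or LPS replicate 3 (0.163), and the sign turned with library totals (-0.01) and on log2(TPM + 1) (-0.02). Summed over the 10 dehydrogenases, the level was 277 ± 2.34 TPM in None and 245 ± 9.70 TPM after LPS (SD, n = 3), a ratio of 0.886, but summed CPM gave 1.08 in the other direction.

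**Figure D4:**
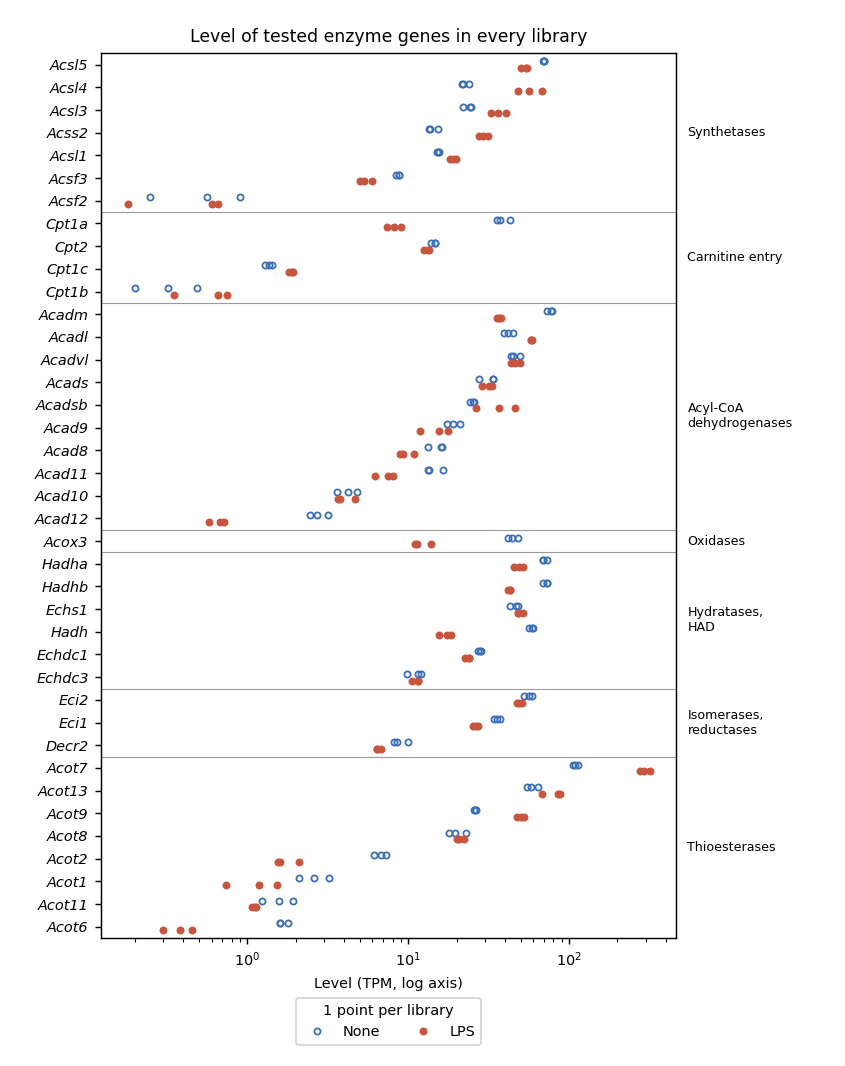
Level of tested enzyme genes in TPM on a log axis, 1 point per library (open blue, None; filled red, LPS), by role. Acot7 is the highest gene in every LPS library, and Cpt1a, Acox3, Hadh, Acad12, Acot2 and Acot6 are separated with LPS to the left.

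Acyl-CoA oxidases open the peroxisomal spiral. Acox3, the oxidase that takes branched chains, measured 48.4, 44.3 and 41.9 TPM in None and 11.1, 11.3 and 13.8 TPM after LPS. Every LPS library lay below every None library, with a change of -1.47 (SE 0.08, 2.77-fold lower, adjusted p = 1.41e-08).

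In the hydratase and hydroxyacyl-CoA dehydrogenase steps 3 of 6 tested genes fell, 2 were called higher and 1 was not called, whereas library totals and log2(TPM + 1) each gave 0 higher and 4 lower. Hadh (chr3:131233419-131272101, minus strand; promoter shown above) measured 56.6, 58.8 and 59.9 TPM in None and 15.5, 17.5 and 18.4 TPM after LPS. There was a wide gap between the groups, and the change was -1.55 (SE 0.09, 2.93-fold lower, adjusted p = 1.3e-08). Hadha (chr5:30118304-30155162, minus strand), the alpha subunit of the trifunctional protein, measured 68.7, 73.1 and 68.6 TPM in None and 52.0, 45.3 and 48.8 TPM after LPS. Hadhb (chr5:30155248-30184593, plus strand), the beta subunit with the thiolase activity, measured 73.3, 69.4 and 73.2 TPM in None and 43.2, 41.9 and 42.7 TPM after LPS. Neither gene overlapped between groups, and both fell, Hadha by 0.40 (SE 0.07, adjusted p = 0.000177) and Hadhb by 0.57 (SE 0.07, adjusted p = 1.04e-05). Their levels were close in None, with a Hadha to Hadhb ratio of 0.976 ± 0.0675, and it stood at 1.14 ± 0.0611 after LPS (SD, n = 3). The RefSeq start sites of the pair are 273 bases apart. Of the 100-base windows of Hadhb, 14.8% also occur in a pseudogene. Summed over the 7 genes of these steps, the level was 286 ± 6.29 TPM in None and 193 ± 4.12 TPM after LPS (SD, n = 3), a ratio of 0.673.

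Echs1, the mitochondrial short-chain enoyl-CoA hydratase, was called higher at 0.34 (SE 0.08, adjusted p = 0.00286) with TPM that overlapped, and was not called with library totals (0.08, adjusted p = 0.406) or on log2(TPM + 1) (0.10, adjusted p = 0.27). The ratio of Hadh to Echs1, successive steps of the spiral for short chains, went from 1.27 ± 0.0365 to 0.346 ± 0.0224 (SD, n = 3). Echdc3 was called higher at 0.25 (SE 0.10, adjusted p = 0.047), and the change turned to -0.01 with library totals. The call was lost with the same sign in 10 of the 15 alternatives. Among them were the fits without None replicate 1 (0.172), None replicate 2 (0.0819), None replicate 3 (0.0655), LPS replicate 2 (0.0696) or LPS replicate 3 (0.0906), DESeq2 (0.0973) and no filter (0.0908). Echdc1, which removes ethylmalonyl-CoA, was not called (0.01, SE 0.08) but fell with library totals (-0.25, adjusted p = 0.013), and 79.2% of its windows are shared with other gene models, mostly the overlapping Rnf146.

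Of the enzymes that prepare unsaturated chains, 1 of 3 tested was called lower and 0 higher by edgeR, also at an unadjusted p under 0.05, and DESeq2 called 0 of 3. Library totals gave 3 lower and log2(TPM + 1) 2 lower. Eci2, an enoyl-CoA isomerase of peroxisomes and mitochondria, measured 52.7, 58.7 and 56.1 TPM in None and 50.9, 47.4 and 49.2 TPM after LPS. Its TPM did not overlap but its CPM did, the change was 0.04 (SE 0.08, adjusted p = 0.668), and library totals turned it to -0.22 (adjusted p = 0.0226). Eci1, the mitochondrial isomerase, measured 34.1, 35.9 and 37.3 TPM in None and 25.2, 27.1 and 26.4 TPM after LPS. The groups were apart, but the change of -0.22 (SE 0.09, adjusted p = 0.0468) was not called without None replicate 2 (0.106), None replicate 3 (0.176), LPS replicate 1 (0.123) or LPS replicate 2 (0.0874), nor with RLE size factors (0.0684), DESeq2 (0.17) or no filter (0.0653). Decr2, the peroxisomal dienoyl-CoA reductase, was not called (-0.23, SE 0.11, adjusted p = 0.0795), though its groups did not overlap in CPM or TPM. It was called lower in 4 of the 15 alternatives, among them library totals (-0.49, adjusted p = 0.0016). The 5 genes of this step summed to 100.5 ± 3.29 TPM in None and 81.9 ± 0.636 TPM after LPS (SD, n = 3), a ratio of 0.815.

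The thioesterases split evenly, with 4 of 8 tested genes higher and 4 lower (3 and 4 with library totals, 3 and 3 on log2(TPM + 1)). Acot7, a cytosolic long-chain thioesterase, had the highest level of any member. It measured 114, 106 and 109 TPM in None and 319, 275 and 292 TPM after LPS, and the change was 1.45 (SE 0.08, 2.73-fold, adjusted p = 7.71e-09). Acot9, a mitochondrial thioesterase, measured 26.2, 26.5 and 25.6 TPM in None and 50.5, 52.3 and 47.3 TPM after LPS and rose by 1.14 (SE 0.07, 2.20-fold, adjusted p = 3.17e-08). The groups of both genes were well apart. Acot13, also mitochondrial, measured 54.8, 58.2 and 64.5 TPM in None and 67.7, 85.4 and 87.5 TPM after LPS and rose by 0.67 (SE 0.12, adjusted p = 0.000239), again without overlap.

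Acot2, the mitochondrial matrix thioesterase of the cluster on chromosome 12, measured 7.24, 6.74 and 6.12 TPM in None and 2.10, 1.60 and 1.55 TPM after LPS. It fell by 1.71 (SE 0.16, 3.26-fold lower, adjusted p = 9.43e-07) without overlap. Acot6, in the same cluster, measured 1.80, 1.60 and 1.60 TPM in None and 0.38, 0.45 and 0.30 TPM after LPS and fell by 1.91 (SE 0.22, 3.76-fold lower, adjusted p = 5.98e-06). Its groups did not overlap, and on log2(TPM + 1), where the pseudocount shrinks changes of low genes, it fell by 0.95. Acot1, the cytosolic neighbour of Acot2, fell by 0.98 (SE 0.28), and since 17.1% of Acot2 windows and 9.32% of Acot1 windows are shared with the other, the division of reads between the pair is uncertain. Acot11 fell by 0.61 (SE 0.17), a call lost on log2(TPM + 1) (adjusted p = 0.112).

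Acot8, the peroxisomal thioesterase, was called higher at 0.31 (SE 0.12, adjusted p = 0.0396) with overlapping groups. The call was lost in 9 of the 15 alternatives, and 7.14% of its windows are shared with Snx21. Among the 9 were the fits without None replicate 2 (0.134), None replicate 3 (0.129), LPS replicate 1 (0.147) or LPS replicate 3 (0.0671), DESeq2 (0.0688) and library totals (0.708). Summed over the 13 thioesterases, the level was 228 ± 4.43 TPM in None and 451 ± 12.9 TPM after LPS (SD, n = 3), a ratio of 1.98. The share of Acot7 in the family went from 48.2% ± 0.963 to 65.4% ± 3.00 (SD, n = 3).

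Of the 13 members that were not tested, 9 had 0 counts in all 6 libraries. They were Acsl6, Acss3, Acox2, Decr1, Eci3, Acot3, Acot4, Acot5 and Acot12, and a count of 0 among 97913548 allows up to 0.0306 CPM each. Decr1 is the mitochondrial dienoyl-CoA reductase, so of the pair the peroxisomal gene Decr2 was the one with counts. The other 4 had few counts. Echdc2 had 33 in None and 10 after LPS, a rate ratio of 0.415 (exact 95% interval 0.182 to 0.862). Its counts per library were 3, 14 and 16 in None and 3, 2 and 5 after LPS, so its groups overlapped. Acss1 had 20 and 2, a ratio of 0.137 (0.0155 to 0.564), and its groups did not overlap. Acot10 had 5 and 7, a ratio of 1.92 (0.524 to 7.66), and Acoxl had 1 and 4, a ratio of 5.48 (0.542 to 270). These intervals cover counting error only and do not include the spread between libraries.

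The 8 lists of neighbouring lipid genes were set beside the members. Their counts stand beside 34% of all genes tested called higher and 35.1% called lower. Ppara, a receptor that drives these enzymes in liver, and the coactivator Ppargc1a had 0 TPM in every library, and the receptor Pparg was at 0 to 0.05 TPM. Ppard, the remaining receptor of the PPAR group, measured 24.2, 19.9 and 18.7 TPM in None and 22.1, 22.1 and 21.1 TPM after LPS, values that overlap. It was called higher at 0.28 (SE 0.09, adjusted p = 0.0157), but not without None replicate 2 (0.0829) or None replicate 3 (0.0792), nor with library totals (0.861). In all, 6 of the 15 alternatives lost the call. Ppargc1b, a coactivator, was called at 0.29 (SE 0.12, adjusted p = 0.0443), but its adjusted p was 0.185 with None replicate 2 left out, 0.109 with None replicate 3 left out and 0.115 with LPS replicate 3 left out. Library totals gave 0.845, and the call was lost in 9 of the 15 alternatives. In the list of PPAR and coactivator regulators, 4 of 10 tested were higher and 4 lower, and 5 in all were called without None replicate 2 or None replicate 3. Library totals and log2(TPM + 1) each gave 1 higher and 5 lower. Esrra, an orphan receptor of oxidative genes, rose by 0.59 (SE 0.09), and Nrip1, a corepressor of such genes, fell by 1.24 (SE 0.11).

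AMPK phosphorylates the enzymes that make malonyl-CoA, the inhibitor of Cpt1a. In that list 2 of 11 tested genes were higher and 5 lower (1 and 8 under both library totals and log2(TPM + 1)). Prkaa1, a catalytic subunit, rose by 1.08 (SE 0.07), and Prkag2, a regulatory subunit, fell by 1.33 (SE 0.11). Of the genes for the enzymes that make malonyl-CoA, Acaca was called higher at 0.32 (SE 0.07), a call lost in 4 of the 15 alternatives. Acacb, at a mean of 1.34 TPM in None and 0.78 TPM after LPS, fell by 1.03 (SE 0.21). For uptake, binding and the carnitine shuttle 6 of 12 were higher and 2 lower (3 and 3 under both library totals and log2(TPM + 1)), and 5 in all were called without None replicate 3. Cd36, a fatty acid receptor, measured 0.28, 0.48 and 0.26 TPM in None and 18.7, 11.6 and 9.77 TPM after LPS, and Acsbg1, a synthetase outside the naming rule of the members, 0.26, 0.39 and 0.33 TPM and 4.03, 4.96 and 3.94 TPM. Both rose without overlap, by 5.85 (SE 0.29) and 3.93 (SE 0.20) on counts and by 3.38 and 2.0 on log2(TPM + 1), where the pseudocount shrinks changes of low genes. Slc25a20, the carnitine-acylcarnitine carrier between Cpt1 and Cpt2, was called at 0.29 (SE 0.11, adjusted p = 0.0333). Its call was lost in 11 of the 15 alternatives. Among them were the fits without None replicate 1 (0.0802), None replicate 2 (0.0855), None replicate 3 (0.0846), LPS replicate 1 (0.0875) or LPS replicate 2 (0.0737), and library totals (0.826).

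Other enzymes of mitochondrial oxidation and electron transfer had 0 of 13 higher and 5 lower by edgeR (0 and 10 with library totals, 0 and 9 on log2(TPM + 1)). At an unadjusted p under 0.05 they had 0 higher and 6 lower, and DESeq2 called 0 higher and 4 lower. Acaa2, the thiolase that ends the spiral, fell by 0.84 (SE 0.12), and Acat1, which splits acetoacetyl-CoA, fell by 0.63 (SE 0.08). The peroxisomal list had 3 of 16 higher and 11 lower (1 and 12 under both library totals and log2(TPM + 1)). Abcd2, a transporter of very-long-chain acyl-CoA, fell by 1.67 (SE 0.08), and the peroxisomal thiolases Acaa1b and Acaa1a fell by 1.26 (SE 0.22) and 1.03 (SE 0.09), while catalase (Cat) rose by 1.27 (SE 0.07). The medians of these lists were -0.19 and -0.44, beside -0.03 over all genes tested. Those of the PPAR, AMPK and uptake lists were 0.052, -0.196 and 0.219. The ketone body, lipid droplet and synthesis lists had medians of 0.608, 0.342 and 0.245.

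Storage and synthesis genes leaned to higher calls in the main analysis. Of 12 tested lipid droplet genes 8 rose and 3 fell (5 and 4 under library totals, 5 and 2 of 11 on log2(TPM + 1)). Hilpda, which inhibits droplet lipolysis, measured 18.6, 22.1 and 19.98 TPM in None and 246, 145 and 140 TPM after LPS and rose by 3.36 (SE 0.20). Plin2, a droplet coat protein, rose by 1.47 (SE 0.08), and Gpat3, which starts triglyceride synthesis, by 1.48 (SE 0.15). Lipa, from the same list, was lower (-1.20, adjusted p = 1.17e-07 by edgeR). The synthesis list held 16 tested genes, 7 called higher and 2 lower, but library totals and log2(TPM + 1) each gave 6 and 8. Me1, a source of NADPH, rose by 1.77 (SE 0.11), and Slc25a1, the citrate carrier, by 1.31 (SE 0.08). Fasn, the fatty acid synthase, was called lower (-0.39, adjusted p = 0.00146 by edgeR). Of 5 tested ketone body genes 3 were called higher and 1 lower (2 and 2 with library totals, 3 and 2 on log2(TPM + 1)), with Bdh1 up by 2.13 (SE 0.28), or 0.97 on log2(TPM + 1). Bdh2 was called at 1.10 (SE 0.37, adjusted p = 0.0184) and stood at 0.51 on log2(TPM + 1). Its call was lost in 5 of 14 alternatives. Its adjusted p was 0.0664, 0.069 and 0.0723 when None replicate 1, None replicate 2 and LPS replicate 2 were left out in turn.

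**Figure D5:**
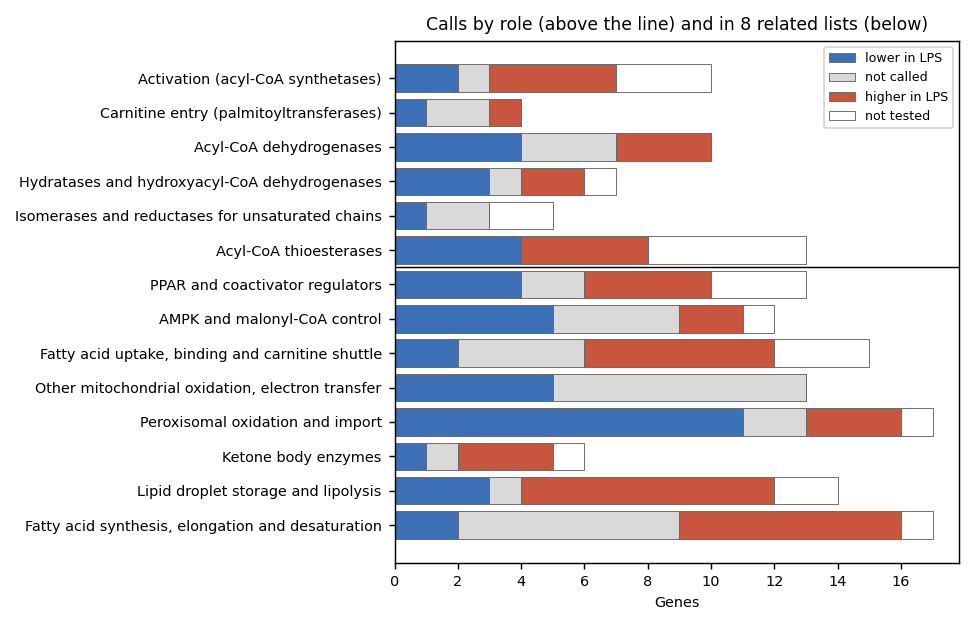
Number of genes called lower, not called, called higher and not tested after LPS, for 6 roles of the members (above the line) and in 8 related lists (below). The peroxisomal list has 11 genes lower and 3 higher, and the lipid droplet list 3 lower and 8 higher.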

How the data were processed

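Total RNA of RAW-Blue cells was sequenced as paired 100-base reads and filtered with SOAPnuke, per the labels' protocols. Reads were handled with STAR 2.7.10a and RSEM 1.3.1 on GRCm38, per the submitters' processing notes. The annotation release, strand setting and RNA selection are not given in the sources used here. The authors deposited expected counts, in which reads of similar genes are apportioned, and TPM values, which the authors scaled for transcript length. Of the library columns, 6 could be matched to labels, and a further 12 could not and were left unused.

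Expected counts were rounded, filtered with filterByExpr (count minimum 10, total minimum 15), scaled by TMM and tested two-sided with edgeR 4.0.16 in R 4.3.3 (glmQLFit and glmQLFTest, group only), adjusted over 11916 genes with calls under 0.05. Biological variation (edgeR's coefficient) came to 8.32%. CPM uses TMM-scaled totals, and group overlap refers to CPM unless TPM is named. SDs are over 3 libraries. Replicate pairs differed by more than sampling noise (chi-square per degree of freedom 3.15 to 16.4). The edgeR fit was run on simulated counts with few changed genes, equally many up and down. That setting cannot test the scaling where most genes are called, as here. Alternatives were RLE factors, library totals, DESeq2 1.42.0, 2 filters, limma 3.58.1 on log2 TPM with pseudocounts of 1 and 0.1, each library left out and a replicate block.

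Results of 1 member gene are not reported here. The members and lists were chosen with earlier results of these data known. Values per library are given for members called with a change of at least 2-fold, for the 2 most abundant of each role and for Cpt1a, Cpt2, Hadha, Hadhb and Acadm. From the lists, up to 4 called genes with the largest changes are named, with at most 20 in all. Ppara, Ppard, Pparg, Ppargc1a, Ppargc1b and Slc25a20 are named besides, and Fasn as a called fall of the synthesis list. Acaca and Acacb are named as the genes for the enzymes that make malonyl-CoA. Chosen after values were seen were the 8 motifs and their 250-base window, the promoters printed, the ratios between pairs and the families plotted. Gene spans are the deposited ones on GRCm38, written from base 1. Shared 100-base windows were counted in GENCODE M21 transcripts.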

Additional observations from a re-analysis of the deposited data

How the results depend on the processing

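Calls of members ranged from 12 to 14 higher and 14 to 16 lower when 1 library was left out, with 40 or 41 members tested. On log2(TPM + 1) and log2(TPM + 0.1) 9 of 38 tested members were higher. All genes called higher numbered 2679 with library totals, 2672 on log2(TPM + 1) and 2656 on log2(TPM + 0.1). Scaling and length enter these alternatives by construction, and other causes were not tested. Called carnitine enzymes fell from 2 to 1 on both TPM scales. Of the isomerases and reductases 0 were called with RLE factors, DESeq2 or no filter, 3 with library totals and on unfiltered TPM, 2 on both filtered TPM scales, and 0 to 1 when 1 library was left out. Called genes of the PPAR list ranged from 5 to 8 and of the uptake list from 5 to 9 with 1 library left out. The other mitochondrial enzymes had 10 calls with library totals and 9 on both TPM scales, the lipid droplet list 7 on both TPM scales, and the synthesis list 14 with library totals and on each TPM scale.

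The sign turned for Acads (-0.011 with library totals, -0.018 on log2(TPM + 1), filtered or not, and -0.019 on log2(TPM + 0.1)), Echdc1 (-0.248, -0.238 and -0.246 on the same scales), Echdc3 (-0.006 with library totals) and Eci2 (-0.221 with library totals and -0.179 on unfiltered log2(TPM + 1)). It also turned, with no call on either side, for Acsf2 (lowest -0.137), Acad10 (lowest -0.156), Acadvl (lowest -0.13), Cpt2 (highest 0.01) and Acad9 (highest 0.014). From counts in place of TPM the shares in None and LPS were 25.2% and 45.8% for Acsl4, 47.7% and 26.1% for Acsl5, 97.7% and 85.5% for Cpt1a and 18.7% and 11.2% for Acadm, with 53.0% for Acot7 in None. Summed CPM gave LPS over None ratios of 1.66 for synthetases, 0.386 for carnitine enzymes, 1.08 for dehydrogenases, 0.770 for hydratases and hydroxyacyl-CoA dehydrogenases, 0.945 for isomerases and reductases and 2.13 for thioesterases.

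Deviations from the group mean correlated at 0.0825, -0.0198 and 0.00954 between same-numbered libraries, and at -0.0605 to 0.0682 between differently numbered ones. With 3 libraries per group these values cannot decide whether the numbers pair the libraries. With a replicate block 14 members were higher and 16 lower, and Acads lost its call (adjusted p = 0.0551). Depth limits the members under about 1 TPM, where SEs reached 0.44.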
